A study of Mus musculus with 96 samples.

Results

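Tuft cells are rare chemosensory cells of the intestinal epithelium. They taste luminal metabolites through a cascade that opens the cation channel TRPM5, carry a stiff apical tuft of actin filaments, and release the cytokine IL-25 and lipid mediators made from arachidonic acid. In the mouse their formation needs the transcription factor POU2F3. The 9 genes described here are Pou2f3, Gfi1b, Trpm5, Sh2d6, Dclk1, Avil, Ptgs1, Alox5ap and Il25. They were taken by symbol, without regard to their values, from 55536 genes in the expression tables, and all 9 were found.

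RNA-seq was carried out on organoids, self-organising cultures of intestinal epithelium, of 4 genotypes derived from C57BL/6 mice. The groups were APCmin/-;BMAL1-/- (called Apc-min Bmal1-null here), APCmin/-;BMAL1+/+ (Apc-min), APC+/+;BMAL1-/- (Bmal1-null) and APC+/+;BMAL1+/+ (control). Apc is a brake on Wnt signalling and is often mutated in intestinal tumours. The circadian clock stops without Bmal1, whose gene symbol is Arntl. All 4 groups received 0.1 µM dexamethasone for 1 h, which sets cells to a common clock phase, and were collected every 2 h between 24 and 46 h later. Of 96 labelled libraries 88 are in the tables, 22 per genotype, with 1 or 2 libraries at each of 12 time points. Each genotype came from 2 organoid lines, and the line of each library is not given, so p-values cover the spread between libraries, which may be technical or may lie between lines. Both genotypes with Apc-min were grown in EN medium and both with WT Apc in ENR medium, as labelled. They also carry separate series of library numbers. Apc genotype, medium and number series cannot be told apart in any comparison below.

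Between 28.8 and 48.1 M reads per library mapped uniquely (median 35.4 M). Values are in TPM, the share of a gene among all transcripts after correction for gene length. The tests ran on log2(TPM + 1) in limma, over genes averaging at least 1 TPM in a compared genotype, and "rose" or "fell" is used where the Benjamini-Hochberg adjusted p over all genes was under 0.05. A pair of libraries did not match its Bmal1 labels. The lower-numbered library labelled Apc-min Bmal1-null at 28 h had 14.7 TPM of Arntl, against 2.0 to 6.22 TPM in the other 21 libraries of that label. The lower-numbered library labelled Apc-min at 28 h had 4.09 TPM, against 7.2 to 17.3 TPM in the other 21. Values include this pair unless stated otherwise. The Ptgs1, Avil and Alox5ap differences for Bmal1 loss with Apc-min, the rhythm counts and the Ptgs1 slopes are also given without it. Member differences in the Apc comparisons, ratios of means, interaction terms and marker sums by genotype are given with it. So are means over lower- or higher-numbered libraries taken as units, and the ranking of genes that tracked the members. A fit that left out lower- or higher-numbered Apc-min libraries kept the rest of the pair.

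Promoters are shown for Avil and Ptgs1, which were high in the Apc-min genotypes, and for Trpm5 and Dclk1, the channel and the common stain of tuft cells, which were low there. Each is the 250 bases before the annotated start in RefSeq (GRCm38.p6), written 5′ to 3′ on the strand of the gene. Capitals mark matches, on either strand, to ATGCAAA, the core of the octamer that POU factors bind, or to CTTTGAT, a TCF and LEF motif of Wnt target genes.
Avil, chr10:127000459-127000708, plus strand: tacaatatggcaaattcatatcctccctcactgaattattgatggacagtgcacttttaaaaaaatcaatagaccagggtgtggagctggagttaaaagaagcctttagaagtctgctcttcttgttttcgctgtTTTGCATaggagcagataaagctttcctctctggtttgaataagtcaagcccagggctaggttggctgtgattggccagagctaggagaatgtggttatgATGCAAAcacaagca
Ptgs1, chr2:36230176-36230425, plus strand: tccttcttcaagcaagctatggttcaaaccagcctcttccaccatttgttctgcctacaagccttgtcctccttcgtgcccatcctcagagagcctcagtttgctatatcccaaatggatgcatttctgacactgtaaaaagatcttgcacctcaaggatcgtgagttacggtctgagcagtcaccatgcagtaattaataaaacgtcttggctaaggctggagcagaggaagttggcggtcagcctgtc
Trpm5, chr7:143094643-143094892, minus strand: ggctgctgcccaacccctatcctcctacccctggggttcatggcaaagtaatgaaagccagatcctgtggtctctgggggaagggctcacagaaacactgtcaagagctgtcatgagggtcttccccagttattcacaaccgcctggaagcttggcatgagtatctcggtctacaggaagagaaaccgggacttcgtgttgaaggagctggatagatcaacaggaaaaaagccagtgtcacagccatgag
Dclk1, chr3:55242114-55242363, plus strand: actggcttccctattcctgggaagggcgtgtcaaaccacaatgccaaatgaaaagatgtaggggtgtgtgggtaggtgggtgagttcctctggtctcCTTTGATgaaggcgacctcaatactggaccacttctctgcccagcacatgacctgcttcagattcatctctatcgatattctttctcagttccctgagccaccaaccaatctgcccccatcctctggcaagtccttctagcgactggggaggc
Avil held ATGCAAA on its own strand 15 to 9 bases before the start, and on the opposite strand 115 to 109 bases before it, where it reads TTTGCAT. Dclk1 held CTTTGAT 153 to 147 bases before the start. Of 32851 promoters of this length, 4.12% held ATGCAAA, 3.21% held CTTTGAT and 6.02% held CACGTG, the E-box that BMAL1 binds with its partner CLOCK. The motifs do not overlap one another in these windows. A sequence was found for 6 of the 9 members, with 7 promoters, and no other match to the 3 motifs lay in them. A match is a string of letters in this window and not a measured binding site.

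The genes that specify tuft cells were low in both Apc-min genotypes. In bulk RNA, fewer cells of a type and less RNA per cell cannot be told apart, here and in all that follows. Pou2f3, the POU factor required for the lineage (ENSMUSG00000032015, 9:43123939-43210369, minus strand, GRCm38), ranged over 0.12 to 0.67 TPM (median 0.42) in Apc-min Bmal1-null libraries, 0.08 to 0.41 TPM (median 0.175) in Apc-min, 0.89 to 2.62 TPM (median 1.85) in Bmal1-null and 1.16 to 2.3 TPM (median 1.81) in control libraries. Every Apc-min library of either Bmal1 genotype lay below every library with WT Apc. Gfi1b, a zinc finger repressor found in tuft cells of the gut (ENSMUSG00000026815, 2:28609450-28621982, minus strand), was near the limit of measurement throughout. It averaged 0.0577 ± 0.158 TPM in Apc-min Bmal1-null, 0.0686 ± 0.0686 TPM in Apc-min, 0.220 ± 0.178 TPM in Bmal1-null and 0.267 ± 0.324 TPM in control organoids (SD, n = 22 each). It was listed at 0 in 15 of 22 Apc-min Bmal1-null libraries, 2 of 22 Apc-min libraries and 1 of 22 in each genotype with WT Apc, and the ranges of all 4 genotypes overlapped.

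The chemosensory and signalling members were also low in both Apc-min genotypes. Trpm5, the calcium-gated channel at the end of the taste cascade (ENSMUSG00000009246, 7:143069153-143094642, minus strand), ranged over 0.07 to 0.45 TPM (median 0.21) in Apc-min Bmal1-null, 0.1 to 0.52 TPM (median 0.235) in Apc-min, 1.51 to 3.25 TPM (median 2.58) in Bmal1-null and 1.69 to 3.23 TPM (median 2.81) in control libraries. Sh2d6, which encodes a protein with an SH2 domain (ENSMUSG00000052631, 6:72513641-72521707, minus strand), ranged over 0 to 0.24 TPM (median 0.055) in Apc-min Bmal1-null, 0 to 0.3 TPM (median 0.075) in Apc-min, 1.9 to 3.62 TPM (median 2.58) in Bmal1-null and 2.11 to 4.09 TPM (median 2.41) in control libraries. For both genes the highest library of either Apc-min genotype lay below the lowest library with WT Apc. Dclk1, a microtubule-associated kinase widely used to stain mouse tuft cells (ENSMUSG00000027797, 3:55242364-55539068, plus strand), ranged over 0.01 to 0.39 TPM (median 0.1) in Apc-min Bmal1-null, 0.03 to 0.61 TPM (median 0.115) in Apc-min, 0.66 to 3.97 TPM (median 1.49) in Bmal1-null and 0.61 to 3.46 TPM (median 2.0) in control libraries. Its spread within the genotypes with WT Apc was the widest of these 3 genes, and 1 Apc-min library reached the lowest control value. Trpm5 overlaps Tssc4 on the other strand, which averaged 69.4, 62.8, 42.9 and 42.3 TPM in Apc-min Bmal1-null, Apc-min, Bmal1-null and control organoids. The kit keeps the strand per the labels, and whether the counting used it is not given in the sources used here.

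**Figure D1:**
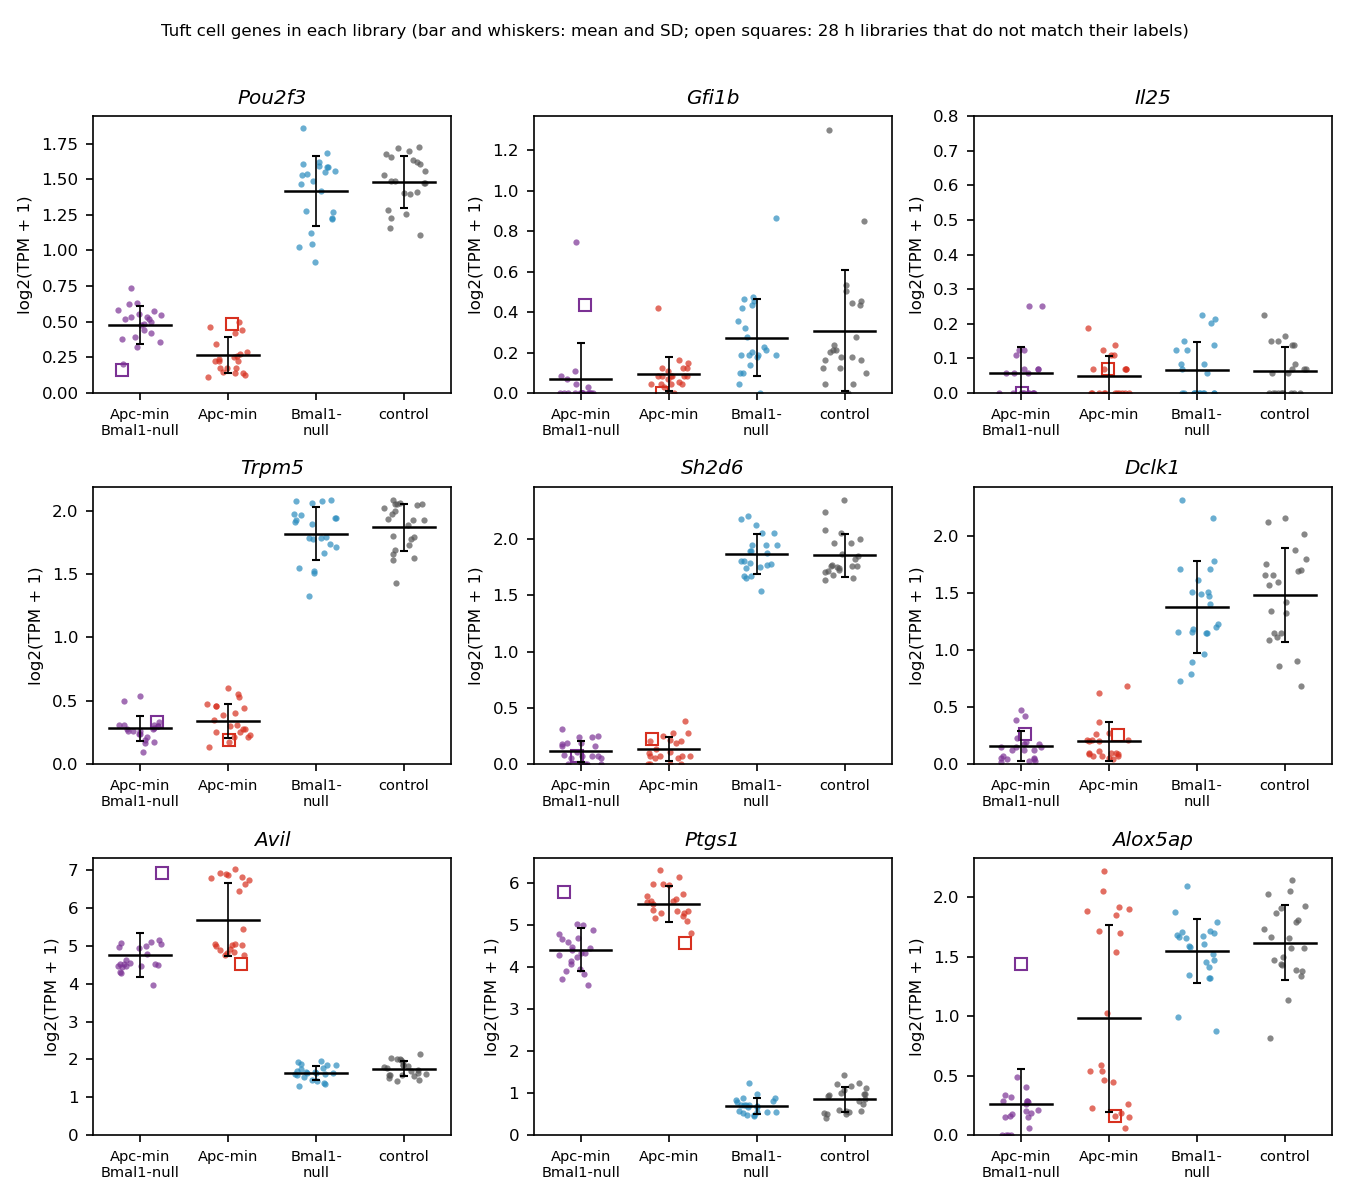
Each panel shows 1 tuft cell gene as log2(TPM + 1) per library (points, 22 per genotype) with the mean and SD, and open squares mark the pair of 28 h libraries that did not match its labels. Pou2f3, Trpm5, Sh2d6 and Dclk1 were low in both Apc-min genotypes, Avil and Ptgs1 were high there, and Il25 lay near 0 in all 4.

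Avil and Ptgs1 ran the other way. Avil encodes advillin, an actin-binding protein of the villin family that marks the tuft (ENSMUSG00000025432, 10:127000709-127020994, plus strand). It ranged over 14.6 to 121.7 TPM (median 22.2) in Apc-min Bmal1-null, 22.1 to 130.5 TPM (median 32.2) in Apc-min, 1.46 to 2.9 TPM (median 2.12) in Bmal1-null and 1.69 to 3.41 TPM (median 2.36) in control libraries. Ptgs1 encodes the constitutive cyclooxygenase, which starts prostaglandin synthesis from arachidonic acid (ENSMUSG00000047250, 2:36230426-36252272, plus strand). It ranged over 10.9 to 53.7 TPM (median 19.6) in Apc-min Bmal1-null, 22.6 to 77.4 TPM (median 44.9) in Apc-min, 0.36 to 1.37 TPM (median 0.62) in Bmal1-null and 0.33 to 1.68 TPM (median 0.86) in control libraries. Without the unmatched pair the Apc-min Bmal1-null libraries reached 34.7 TPM for Avil and 31.4 TPM for Ptgs1, and the Apc-min libraries began at 26.0 TPM and 27.1 TPM. Every Apc-min library of either Bmal1 genotype lay above every library with WT Apc for both genes, with the unmatched pair or without it. The share of all genes that separated in this way was not counted, for these genes or for Pou2f3, Trpm5 and Sh2d6 above. Avil overlaps Tsfm on the other strand, which averaged 129, 119, 92.4 and 90.3 TPM in the same order of genotypes. Whether Tsfm reads were counted for Avil was not tested.

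Alox5ap was low in Apc-min Bmal1-null libraries and widely spread in Apc-min libraries, and Il25 was near 0 in all 4 genotypes. Alox5ap, which hands arachidonic acid to the lipoxygenase Alox5 for leukotriene synthesis (ENSMUSG00000060063, 5:149264767-149288153, plus strand), ranged over 0 to 1.71 TPM (median 0.155) in Apc-min Bmal1-null, 0.04 to 3.65 TPM (median 0.475) in Apc-min, 0.83 to 3.28 TPM (median 2.03) in Bmal1-null and 0.76 to 3.41 TPM (median 2.07) in control libraries. The Apc-min range covered nearly the whole span of the other 3 genotypes. Il25, the cytokine with which tuft cells alert innate lymphoid cells (ENSMUSG00000040770, 14:54932695-54935837, plus strand), averaged 0.0414 ± 0.0575 TPM in Apc-min Bmal1-null, 0.0359 ± 0.042 TPM in Apc-min, 0.0491 ± 0.0592 TPM in Bmal1-null and 0.0455 ± 0.0518 TPM in control organoids (SD, n = 22 each). It was listed at 0 in 10 or 11 of 22 libraries of every genotype, so no difference was detectable at this depth. In each genotype with WT Apc, the mean levels placed Trpm5 and Sh2d6 highest, then Avil, then Alox5ap, with Dclk1 and Pou2f3 below. The library ranges of neighbours in this order overlapped.

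With WT Bmal1, Apc-min organoids differed from control organoids in all 7 members that passed the low-value filter, 2 higher and 5 lower. Of all 13663 genes tested, 81.6% differed in this comparison, 50.5% higher and 31.1% lower, a background against which the count says little. A member that passed the filter only through the genotype where it is high had to differ, so the count is no support. As ratios of mean TPM, Sh2d6 was 26.5-fold lower in Apc-min than in control organoids, Dclk1 12.1-fold lower, Trpm5 9.91-fold lower and Pou2f3 8.78-fold lower. Avil was 26.3-fold and Ptgs1 55.05-fold higher. On the log2(TPM + 1) scale, which understates changes of low genes, Sh2d6 fell by 1.73 ± 0.05 (SE, adjusted p = 6.26e-26), Trpm5 by 1.54 ± 0.05 (adjusted p = 1.07e-24), Dclk1 by 1.28 ± 0.10 (adjusted p = 6.79e-14) and Pou2f3 by 1.23 ± 0.05 (adjusted p = 3.36e-22). Ptgs1 rose by 4.68 ± 0.10 (adjusted p = 9.05e-31) and Avil by 3.94 ± 0.22 (adjusted p = 6.4e-18). Time-point means of these 6 genes differed in the stated direction at 12 of 12 time points. All of them but Avil passed the filter only through the genotype where they were high, which fixed their direction. The share of all genes with such a tally was not counted, so the tally is no support. The median log2 difference over all genes was 0.17, and no member changed direction when libraries were rescaled by median-of-ratios, which brought that median to 0.012.

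Alox5ap fell by 0.66 ± 0.19 (adjusted p = 0.00189), and this difference lay in the higher-numbered Apc-min libraries. Without the Apc-min higher-numbered libraries the difference was 0.055 (adjusted p = 0.761), and without the lower-numbered ones it was -1.22 (adjusted p = 2.32e-10). The fit without the higher-numbered libraries kept the unmatched library labelled Apc-min, with 0.12 TPM of Alox5ap. The other 9 lower-numbered Apc-min libraries had 1.9 to 3.65 TPM (mean 2.67), against a mean of 2.14 TPM in control organoids. No difference without the unmatched library is given for that fit. Gfi1b and Il25 did not pass the filter. With no filter on low values Gfi1b fell by 0.23 (adjusted p = 0.00467), and the difference for Il25 was -0.014 (adjusted p = 0.568).

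Apc-min Bmal1-null organoids differed from Bmal1-null organoids in the same 7 members. All but Avil passed the filter only through the genotype where they were high, which fixed their direction, so the count and the directions are no support here either. Here 84.5% of 13404 genes differed, 45.7% higher and 38.8% lower. Sh2d6 was 31.7-fold lower in Apc-min Bmal1-null than in Bmal1-null organoids, Dclk1 14.1-fold, Trpm5 11.8-fold, Alox5ap 8.74-fold and Pou2f3 4.29-fold. Ptgs1 was 33.9-fold and Avil 13.6-fold higher. On the log2(TPM + 1) scale the differences were -1.76 ± 0.05 for Sh2d6, -1.54 ± 0.05 for Trpm5, -1.28 ± 0.09 for Alox5ap, -1.22 ± 0.08 for Dclk1, -0.95 ± 0.05 for Pou2f3, 3.10 ± 0.13 for Avil and 3.70 ± 0.10 for Ptgs1 (SE, all adjusted p of 1.71e-15 or less). All 7 had this direction at 12 of 12 time points, and in 6 of them, all but Alox5ap, the libraries of the 2 genotypes did not overlap. Without the unmatched library Alox5ap averaged 0.155 TPM in Apc-min Bmal1-null organoids, against 0.226 TPM with it. It then reached 0.4 TPM, against a lowest value of 0.83 TPM in Bmal1-null organoids, so that none of the 7 overlapped. The share of all genes without overlap was not counted, so this separation cannot be called particular to the members. With no filter Gfi1b fell by 0.22 (adjusted p = 0.00145), and the difference for Il25 was -0.013 (adjusted p = 0.622).

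**Figure D2:**
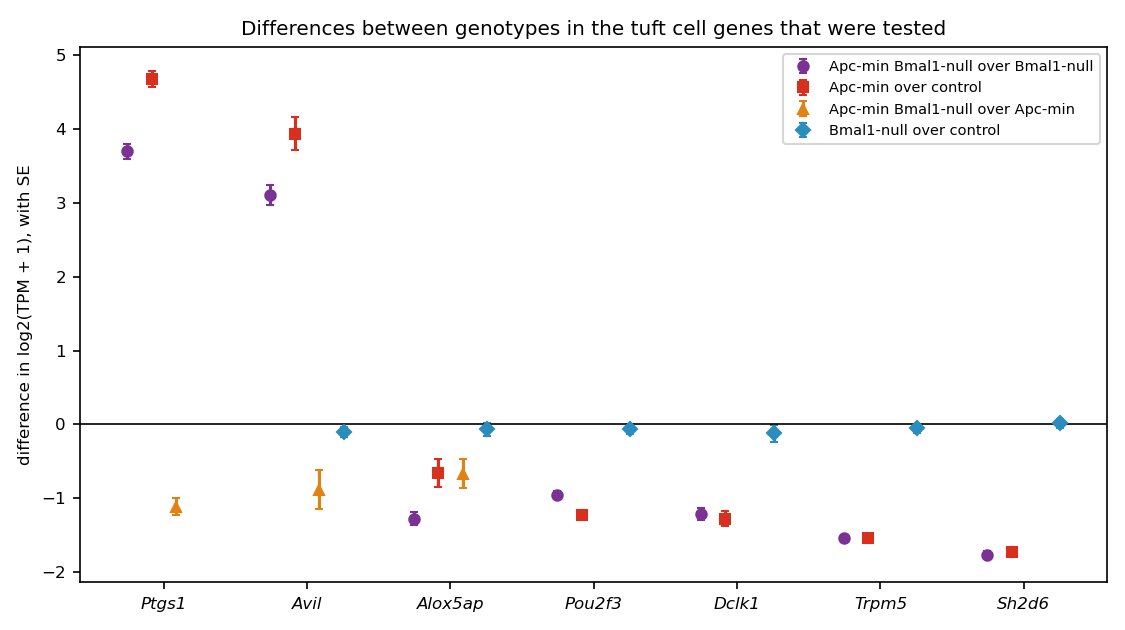
Differences in log2(TPM + 1) with their SE for the members tested in each of 4 comparisons, the first genotype of each legend entry minus the second. The Apc comparisons (circles and squares) reach 4.68 for Ptgs1 and -1.76 for Sh2d6, and the Bmal1 comparison with WT Apc (diamonds) stays near 0 for every member tested.

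The sum of Pou2f3, Trpm5, Sh2d6 and Dclk1 ranged over 0.4 to 1.28 TPM (median 0.805) in Apc-min Bmal1-null, 0.26 to 1.48 TPM (median 0.71) in Apc-min, 5.72 to 11.6 TPM (median 8.51) in Bmal1-null and 5.73 to 12.9 TPM (median 9.09) in control libraries. Markers of other epithelial types moved between the same genotypes. The summed enteroendocrine list had medians of 2.44 TPM in Apc-min Bmal1-null, 2.44 TPM in Apc-min, 1273 TPM in Bmal1-null and 1123 TPM in control libraries. The goblet list had medians of 287, 149, 9628 and 9808 TPM and the Paneth list 583, 2194, 19880 and 19825 TPM in that order. Of 10 Paneth genes 3 were called higher and 7 lower in Apc-min against control organoids. In Apc-min Bmal1-null against Bmal1-null organoids 1 was called higher and 7 lower. Over all genes 50.5% were higher and 31.1% lower in the first, and 45.7% and 38.8% in the second. Markers of cells that lie outside the epithelium and express Ptgs1 or Alox5ap in the body, such as immune cells and platelets, were also summed. The immune list of 11 genes ranged over 6.94 to 22.3 TPM in Apc-min Bmal1-null, 10.9 to 33.7 TPM in Apc-min, 14.9 to 28.8 TPM in Bmal1-null and 15.3 to 26.0 TPM in control libraries. Its defining member Ptprc averaged 0.045, 0.0305, 0.123 and 0.1 TPM, and Cpa3, a mast cell protease, was listed at 0 throughout. Other immune genes were higher. In Apc-min against control organoids 3 of the list were tested, of which 1 was higher and 2 were lower. In Apc-min Bmal1-null against Bmal1-null organoids 4 were tested, of which 2 were higher and 2 lower. The platelet list had medians of 6.26, 5.53, 48.6 and 51.3 TPM, with a lower sum in the Apc-min genotypes. Of its genes 3 were tested in the first of these comparisons, 1 higher and 2 lower, and 2 in the second, both lower. The part of these other cell types in the values of the members was not tested.

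With WT Apc none of the members tested was called for loss of Bmal1. Of 6 members tested, 0 were called between Bmal1-null and control organoids, where 3.56% of 12654 genes were, 2.09% higher and 1.47% lower. None of the 6 had an unadjusted p under 0.05, the smallest being 0.121 for Avil. The differences in log2(TPM + 1) were -0.12 ± 0.12 for Dclk1, -0.11 ± 0.07 for Avil, -0.07 ± 0.09 for Alox5ap, -0.06 ± 0.06 for Pou2f3, -0.05 ± 0.06 for Trpm5 and 0.01 ± 0.06 for Sh2d6 (SE, adjusted p of 0.737 or more). The ranges of the 2 genotypes overlapped for all 9 members. A p above the threshold does not show that levels were equal, and the standard errors give the size of difference that could have been missed.

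With Apc-min, loss of Bmal1 went with lower Ptgs1, Avil and Alox5ap. These were the only 3 members that passed the filter, and all 3 were called, in a comparison where 60.3% of 12885 genes differed and 35.7% were lower. Alox5ap passed it only through Apc-min organoids, where it was high, so its direction was fixed. Ptgs1 averaged 21.6 ± 9.21 TPM in Apc-min Bmal1-null and 45.9 ± 13.6 TPM in Apc-min organoids (SD, n = 22 each), a difference of -1.12 ± 0.12 in log2(TPM + 1) (SE, adjusted p = 1.24e-09). It was lower at 12 of 12 time points. Avil averaged 29.2 ± 21.4 TPM in Apc-min Bmal1-null and 63.2 ± 42.0 TPM in Apc-min organoids, a difference of -0.88 ± 0.26 (adjusted p = 0.00428), and was lower at 11 of 12 time points (12 of 12 without the unmatched pair). Alox5ap averaged 0.226 ± 0.348 TPM in Apc-min Bmal1-null and 1.28 ± 1.24 TPM in Apc-min organoids, a difference of -0.67 ± 0.20 (adjusted p = 0.00382), and was lower at 10 of 12 (11 of 12 without the pair). Without the unmatched 28 h pair the differences were -1.23 for Ptgs1, -1.04 for Avil and -0.77 for Alox5ap, with adjusted p of 3.33e-15, 0.000252 and 0.000588. With no filter Pou2f3, the 1 other member called, rose by 0.22 (adjusted p = 9.55e-05), where 32% of all genes were called. The fibroblast list of 8 genes was also lower, summing to 0.59 to 8.36 TPM (median 1.785) in Apc-min Bmal1-null and 3.98 to 17.45 TPM (median 8.145) in Apc-min libraries. Without the unmatched pair the highest sum in Apc-min Bmal1-null libraries was 5.92 TPM. Of these 8 genes 7 averaged under 1 TPM in each genotype, Lum was listed at 0 in every Apc-min library, and Vim, the 1 gene tested, fell by 1.53 ± 0.18 (adjusted p = 2.11e-08). The part of fibroblast RNA in the Ptgs1 difference was not tested.

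The Apc-min libraries fell into separate levels of Avil and Alox5ap by library number. Leaving out the unmatched pair, Avil ranged over 86.2 to 130.5 TPM in the 9 lower-numbered Apc-min libraries and 26.0 to 43.01 TPM in the 12 higher-numbered ones. Alox5ap ranged over 1.9 to 3.65 TPM in the lower-numbered and 0.04 to 1.04 TPM in the higher-numbered Apc-min libraries. The 2 sets did not overlap for either gene. In Apc-min Bmal1-null organoids Avil ranged over 18.6 to 22.3 TPM in the 11 lower-numbered libraries and 14.6 to 34.7 TPM in the 10 higher-numbered ones. The overlap rested on the higher-numbered library at 32 h (14.6 TPM). The other 9 lay at 23.65 to 34.7 TPM, above every lower-numbered library, so the order of the sets was opposite to that in Apc-min organoids. Alox5ap overlapped between the sets, at 0 to 0.22 TPM and 0 to 0.4 TPM. Ptgs1 was no higher in the lower-numbered Apc-min libraries, with 27.1 to 50.7 TPM there and 34.9 to 77.4 TPM in the higher-numbered ones. The labels do not say whether library number follows the organoid line.

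The calls differed with the set that was left out. Without the Apc-min lower-numbered libraries the Avil difference was -0.20 (adjusted p = 0.341), Alox5ap no longer passed the filter, and Ptgs1 still fell by 1.31 (adjusted p = 1.73e-10). Without the higher-numbered ones Avil fell by 1.76 (adjusted p = 1.64e-05), Alox5ap by 1.41 (adjusted p = 5.51e-06) and Ptgs1 by 0.86 (adjusted p = 6.06e-05). Each of these fits kept the unmatched library labelled Apc-min Bmal1-null. Its 121.7 TPM of Avil stood against 14.6 to 34.7 TPM in the others of that label. The fit without the higher-numbered libraries also kept the unmatched library labelled Apc-min. No value without the pair is given for these fits, so the part of the pair in them was not tested. When the mean of each library set was taken as the unit, 0 of the 3 were called, with differences of -1.06 for Ptgs1 (adjusted p = 0.0596), -1.001 for Avil (adjusted p = 0.322) and -0.78 for Alox5ap (adjusted p = 0.35), and 2.61% of all genes were called. The set means included the unmatched pair. Lists of other cell types also differed between the Apc-min sets. Without the unmatched pair, Paneth markers summed to 2294 to 4062 TPM in the lower-numbered and 1305 to 2391 TPM in the higher-numbered Apc-min libraries. Enterocyte markers summed to 281 to 425 TPM and 154 to 252 TPM. Their part in the Avil and Alox5ap levels was not tested. The unmatched library labelled Apc-min Bmal1-null had 121.7 TPM of Avil and 1.71 TPM of Alox5ap, and the one labelled Apc-min had 22.1 TPM and 0.12 TPM. Each of the pair thus lay with the lower-numbered libraries of the other label for Avil.

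**Figure D3:**
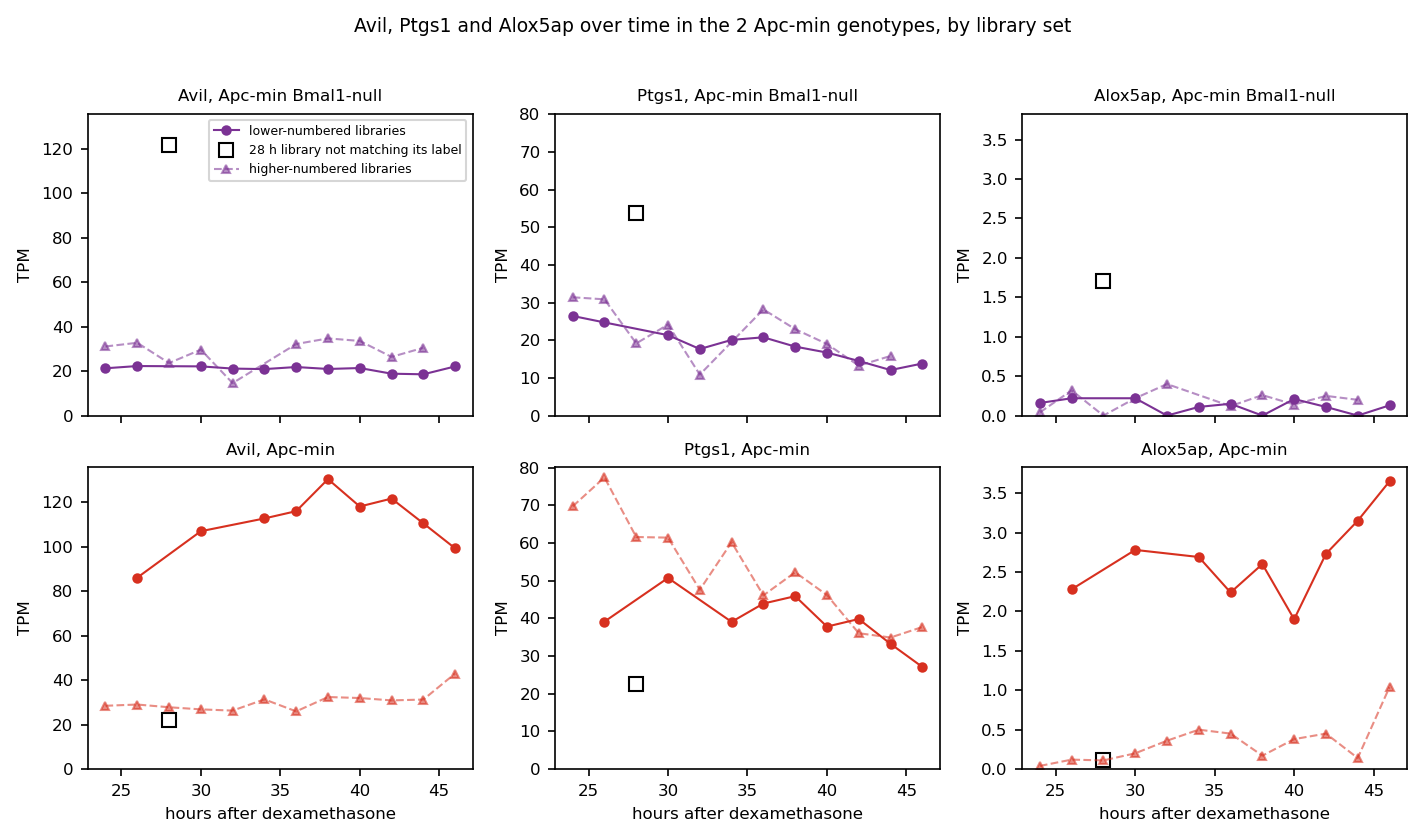
Avil, Ptgs1 and Alox5ap in TPM against hours after dexamethasone in Apc-min Bmal1-null (top) and Apc-min organoids (bottom), with the lower-numbered libraries as circles and the higher-numbered as triangles, and squares for the pair that did not match its labels. Apart from that pair, the 2 Apc-min sets lie apart for Avil and Alox5ap at every time point where both exist, and Ptgs1 declines with time in both genotypes.

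Whether the Bmal1 difference depended on Apc was tested by an interaction over all 88 libraries. Of 7 members tested 4 were called, where 47.7% of 13846 genes were, 18.1% with a positive and 29.6% with a negative term. The interaction was -0.96 ± 0.14 for Ptgs1 (SE, adjusted p = 4.25e-08), -0.81 ± 0.26 for Avil (adjusted p = 0.00668), -0.63 ± 0.21 for Alox5ap (adjusted p = 0.00822) and 0.28 ± 0.08 for Pou2f3 (adjusted p = 0.00184). It was 0.06 for Dclk1, -0.03 for Sh2d6 and close to 0 for Trpm5, with adjusted p of 0.72 or more. Pou2f3 averaged 0.398 ± 0.129 TPM in Apc-min Bmal1-null and 0.206 ± 0.107 TPM in Apc-min organoids (SD, n = 22 each), higher in the Bmal1-null background at 11 of 12 time points (12 of 12 without the unmatched pair), and both levels lay below the filter. Its direction was opposite to that of the other 3. Without the Apc-min lower-numbered libraries the interaction remained called for Ptgs1 (-1.15, adjusted p = 6.98e-10) and Pou2f3 (0.24, adjusted p = 0.0194). It was not called for Avil (-0.083, adjusted p = 0.745) or Alox5ap (-0.052, adjusted p = 0.812). The unmatched library labelled Apc-min Bmal1-null stayed in this fit, with 121.7 TPM of Avil and 1.71 TPM of Alox5ap. No interaction without it is given, so its part in these terms was not tested. With set means as units 0 of the 7 were called, Ptgs1 coming nearest (adjusted p = 0.0963).

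No member was called rhythmic. A cosine and a sine of 24 h called 0 members in every genotype, where 2.59% of all genes were called in Apc-min Bmal1-null, 12% in Apc-min, 0% in Bmal1-null and 0.0557% in control organoids. Without the unmatched pair 0 members were called as well, and the shares of all genes were 11.9% in Apc-min Bmal1-null and 3.17% in Apc-min organoids, the reverse order. A single cycle was sampled, so a cosine cannot be told from another change that happens once. The members with an unadjusted p under 0.05 were Pou2f3 in Bmal1-null organoids, with an amplitude of 0.19 ± 0.06 in log2(TPM + 1) and a fitted peak at 42.1 h (SE, p = 0.0209, adjusted p = 0.563), and Dclk1 in control organoids, with 0.32 ± 0.10 and a peak at 29.1 h (p = 0.0199, adjusted p = 0.358). Mean Dclk1 in control organoids was highest at 34 h, at 2.86 TPM, and lowest at 44 h, at 1.21 TPM. No difference in rhythm between Bmal1 genotypes was called for any member, where 0% of genes differed with Apc-min and 0.0395% with WT Apc, and 1 of 9 member tests had an unadjusted p under 0.05 (Pou2f3 with WT Apc, p = 0.0197).

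Ptgs1 was the 1 member called for a linear trend, in both Apc-min genotypes. With time as a factor, which tests any difference between the 12 time points, it was called in neither (adjusted p = 0.836 in Apc-min Bmal1-null and 1 in Apc-min), where 0.0164% and 0% of genes were. With no filter on low values the Apc-min call was lost (adjusted p = 0.0588), and Dclk1 was called in Apc-min Bmal1-null organoids (-0.0115 per h, adjusted p = 0.0443). In Apc-min Bmal1-null organoids Ptgs1 fell by 0.0486 ± 0.0114 per h in log2(TPM + 1) (SE, adjusted p = 0.00754), a change of -1.07 over 22 h. There 8.44% of genes had a slope, 5.62% rising and 2.82% falling. Without the unmatched library the slope was -0.0412 per h (adjusted p = 0.00276), and 17.5% of genes had one. In Apc-min organoids Ptgs1 fell by 0.0326 ± 0.0108 per h (adjusted p = 0.0268), a change of -0.72, where 31.2% of genes had a slope, 22.2% rising and 9.01% falling. Without the unmatched library it was -0.0426 per h (adjusted p = 0.00058), and 25.4% of genes had one. Mean Ptgs1 declined to 13.8 TPM at 46 h in Apc-min Bmal1-null organoids, where the highest time point was 28 h with 36.4 TPM, a mean that includes the unmatched library. In Apc-min organoids it declined to 32.4 TPM at 46 h, and the highest value was 69.7 TPM at 24 h. The Apc-min call was lost when any 1 of 4 libraries was left out, namely the higher-numbered ones at 24, 26 and 28 h and the lower-numbered one at 46 h, with adjusted p up to 0.0799. Of 6 members tested in each genotype with WT Apc, 0 had a slope, against 6.71% of genes in Bmal1-null (3.43% rising and 3.28% falling) and 2.2% in control organoids (0.971% rising and 1.23% falling). At an unadjusted p under 0.05 there was 1 in each, Pou2f3 in Bmal1-null (p = 0.0169) and Dclk1 in control organoids (p = 0.0197). In control organoids the slope of Dclk1 was -0.0278 per h (adjusted p = 0.216), and it was called when the higher-numbered control library at 24 h was left out (adjusted p = 0.0474).

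Other genes of the tuft programme were grouped by role into 6 lists of 57 genes. In Apc-min against control organoids 37 were tested, of which 12 were higher and 22 lower. In Apc-min Bmal1-null against Bmal1-null organoids 37 were tested, of which 10 were higher and 25 lower. These are 32.4% higher and 59.5% lower in the first comparison and 27% and 67.6% in the second, where all genes gave the shares printed above (50.5% and 31.1%, 45.7% and 38.8%). As with the members, genes that passed the filter only through the genotype where they were high had their direction fixed. The shares are therefore no support. With the mean of each library set as the unit, 25 of 37 were called in the first comparison, 11 higher and 14 lower, and 35 of 37 in the second, where 42.7% and 78.1% of all genes were called. In the first comparison 33 of 36 were called without the unmatched pair and in the second 35 of 37, where 81.5% and 85.2% of all genes were called. Of the 12 genes of the chemosensory cascade 5 were tested. Of these, 2 fell in Apc-min organoids and all 5 in Apc-min Bmal1-null organoids, with a median difference of -0.24 and -0.65 where the median of all genes was 0.17 and 0.074. Rgs13, a regulator of G protein signalling, fell by 1.38 ± 0.05 in the first comparison and by 1.27 ± 0.07 in the second (SE), and the phospholipase Plcg2 fell by 0.68 ± 0.11 and by 0.65 ± 0.09. The tuft receptor genes were too low to test in every genotype. Sucnr1, the succinate receptor, averaged 0.0023 TPM in Apc-min Bmal1-null, 0.013 TPM in Apc-min, 0.13 TPM in Bmal1-null and 0.123 TPM in control organoids.

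Kinases, adaptors and lineage factors were mostly lower in both Apc comparisons, but the filter fixed part of these directions. Of 14 kinases and adaptors 12 averaged under 1 TPM in each Apc-min genotype and 9 in each genotype with WT Apc. For the 8 lineage factors these counts were 5 and 2. A gene that passed the filter only through the genotype where it is high had its direction fixed, so the counts are no support. Of 14 kinases and adaptors 5 were tested, of which 4 fell and 1 rose in the first comparison and 4 fell in the second. Sh2d7, another SH2 domain gene, fell by 0.99 ± 0.04 in the first comparison and by 1.02 ± 0.04 in the second. Of 8 lineage factors 6 were tested in each comparison, with 5 lower and 1 higher. Atoh1, which commits cells to secretory fates, fell by 4.99 ± 0.06 and by 4.41 ± 0.07, and Spib fell by 1.03 ± 0.05 and by 1.04 ± 0.05. The exception was Runx1, a Runt-family factor, which rose by 2.48 ± 0.09 and by 1.94 ± 0.11. Of the 5 genes of cytokine input 4 were tested, with 4 lower in the first comparison and 3 in the second. With set means as units the calls in the first comparison were 1 of 4 here, 1 of 5 in the cascade, 3 of 5 among kinases and adaptors and 4 of 6 among lineage factors. There 42.7% of all genes were called. Of the cytokine input genes, Il17rb, a subunit of the receptor for IL-25, fell by 0.71 ± 0.17 and by 1.54 ± 0.09.

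The eicosanoid genes moved in both directions. All 8 were tested and called in both Apc comparisons, 5 higher and 3 lower in each, with medians of 0.74 and 0.68. Of all genes 81.6% and 84.5% were called there. Ltc4s, the leukotriene C synthase, rose by 2.37 ± 0.15 in the first and by 0.87 ± 0.13 in the second, and Ptges, a prostaglandin E synthase, rose by 1.88 ± 0.24 and by 0.69 ± 0.20. Ptgs2, the inducible cyclooxygenase, rose by 0.71 ± 0.08 and by 1.78 ± 0.10, and Alox5 rose by 0.77 ± 0.08 and by 0.66 ± 0.08. Hpgds, the prostaglandin D synthase found in tuft cells, fell by 1.19 ± 0.07 and by 1.05 ± 0.06. Pla2g4a, the phospholipase that frees arachidonic acid, fell by 3.63 ± 0.12 and by 1.43 ± 0.13. The cytoskeletal and surface list was also mixed, with 5 higher and 4 lower of 9 tested in Apc-min and 4 higher and 5 lower in Apc-min Bmal1-null organoids. The actin bundler Espn fell by 2.42 ± 0.16 and by 4.18 ± 0.13, and Krt18, a keratin of simple epithelia, rose by 1.14 ± 0.04 and by 1.31 ± 0.03. Several of these genes are also expressed in other epithelial cells, Vil1 and Krt18 among them.

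**Figure D4:**
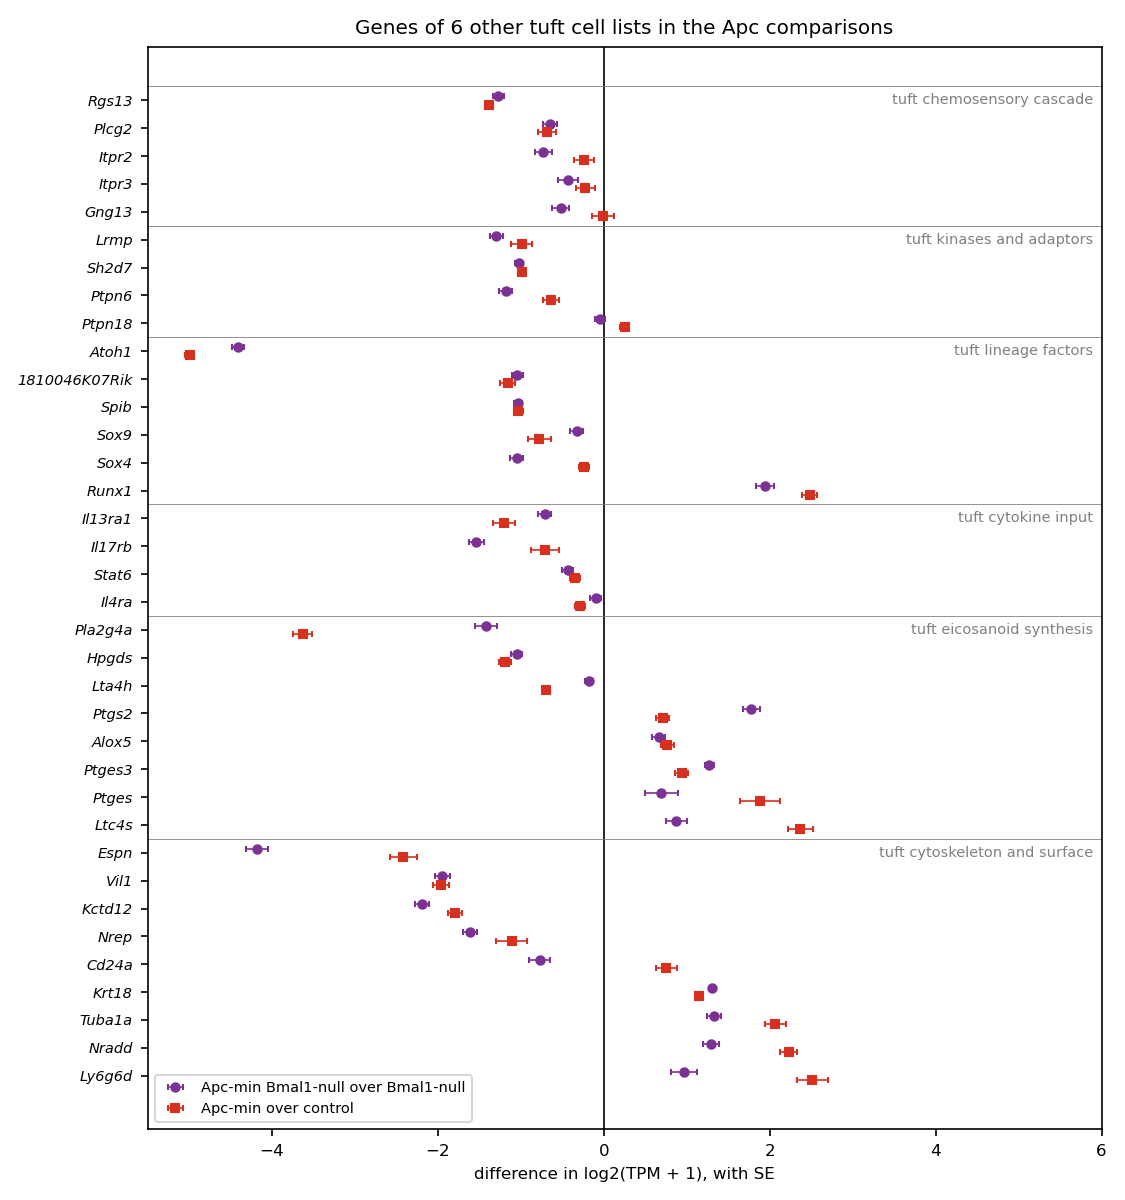
Differences in log2(TPM + 1) with their SE for the reported genes of 6 other tuft cell lists, Apc-min Bmal1-null over Bmal1-null (circles) and Apc-min over control (squares). Most genes of the cascade, kinase, lineage and cytokine lists lie left of 0, with Runx1 at 2.48 and 1.94 to the right, and the eicosanoid and cytoskeletal lists lie on both sides.

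With WT Apc, loss of Bmal1 moved 2 of 35 other tuft genes that were tested, where 3.56% of all genes moved. With set means as units it was 0 of 35, where 0.0948% of all genes were called. Ptges fell by 0.50 ± 0.11 (SE, adjusted p = 0.00559), and Cd24a, a surface protein of secretory and progenitor cells, fell by 0.18 ± 0.04 (adjusted p = 0.00509). With Apc-min it moved 24 of 28, 8 higher and 16 lower, where 60.3% of all genes moved. It moved 25 of 28 without the unmatched pair and 17 of 26 without the Apc-min lower-numbered libraries, where 65.9% and 45.8% of all genes moved. In the eicosanoid list Pla2g4a rose by 2.13 ± 0.17 and Ptgs2 by 0.94 ± 0.12, while Ptges fell by 1.58 ± 0.29 and Ltc4s by 1.38 ± 0.20. These 4 kept their direction and their call without the lower-numbered and without the higher-numbered Apc-min libraries. With set means as units 3 of 28 were called, where 2.61% of all genes were.

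Genes whose levels tracked the members from library to library were ranked as a description. The measure was the mean of 4 Pearson correlations, each over 22 libraries of a genotype, with the average of the 6 members that passed a mean of 1 TPM (Trpm5, Avil, Pou2f3, Ptgs1, Alox5ap and Sh2d6), after the genotype and time means were removed. Over 12964 genes the highest were Pcdhgb6 (0.827), Wfs1 (0.82), Ficd (0.803), Cat (0.788), Ptprs (0.783), Ccdc9b (0.781), Soat1 (0.78), Afap1 (0.778), 6330403L08Rik (0.778) and Phlda1 (0.774). The points of each correlation share library and depth, and in Apc-min organoids they share the library sets described above. The unmatched 28 h pair was included, and no ranking without it is given. In Apc-min Bmal1-null organoids the unmatched library had 121.7 TPM of Avil, against 14.6 to 34.7 TPM in the others. For Alox5ap it had 1.71 TPM, against 0 to 0.4 TPM. The correlations in the 2 Apc-min genotypes may rest on this pair.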

How the data were processed

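For each genotype the authors deposited a table of TPM values. STAR 2.5, RSEM 1.3.0 and GRCm38 stand in the submitters' processing notes, with no role stated. The kit was directional and reads were single and 101 bases long, per the labels. A second set of TPM tables, quantile-normalized and filtered by the authors within each genotype, holds 15311 to 15772 genes and was used as an alternative. Read counts come from the deposited alignment log and carry no normalization. Percent values in the same log were used as deposited. Reads that were too short to map averaged 1.31, 1.30, 6.00 and 6.73% in Apc-min Bmal1-null, Apc-min, Bmal1-null and control libraries.

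Tests ran in limma 3.58.1 (R 4.3.3, with a variance trend) on log2(TPM + 1), a pseudocount of 1, over genes averaging at least 1 TPM in a compared genotype, with Benjamini-Hochberg adjustment over all genes and a threshold of 0.05. Level was fitted with time point as a factor, over 44 libraries for a pair of genotypes and 88 for the interaction. Rhythm was the joint F test of cosine and sine terms (24 h) over 22 libraries, and trend a slope per h. Errors of differences are standard errors of the limma coefficient. Within each genotype and time point, the lower-numbered and the higher-numbered library form the library sets. The steps were tested on simulated data.

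The 9 members and the 17 gene lists (169 genes in all) were chosen with earlier results of these data known. The members are always named, and from each other tuft list the text names up to 4 called genes with the largest difference per comparison. Sucnr1, Ffar3, Gnat3, Cd300lf, Siglecf, Alox5 and Krt18, which that rule does not take, were chosen after their values were seen. A gene that the rule takes is not reported here. Gene models are from GENCODE M21, and promoter sequences from RefSeq. Alternatives covered the pseudocount, the filter, scaling, the authors' quantile-normalized table, library sets, time points with 2 libraries, the unmatched pair, and each library left out.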

Additional observations from a re-analysis of the deposited data

Results flagged for a closer look

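The difference that went with Bmal1 loss was not the same in Apc-min as in Apc WT organoids for 4 of 7 members, by the limma interaction term over 88 libraries, where 47.7% of all genes were called. With set means as units 0 of the 7 were called (Ptgs1 nearest, adjusted p = 0.0963), and 3.21% of all genes. The interaction was -0.96 for Ptgs1, -0.81 for Avil, -0.63 for Alox5ap and 0.28 for Pou2f3 in log2(TPM + 1). Ptgs1 had the same sign and stayed called without either Apc-min library set. The Avil and Alox5ap terms were near 0 without the Apc-min lower-numbered libraries, in a fit that kept the unmatched library labelled Apc-min Bmal1-null. Pou2f3 averaged 0.398 TPM in Apc-min Bmal1-null, 0.206 TPM in Apc-min, 1.71 TPM in Bmal1-null and 1.81 TPM in control organoids, so its term rests on levels under 1 TPM in both Apc-min genotypes.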

How the results depend on the processing

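The count of members called did not change when any 1 library was left out in the level and interaction comparisons. For trends it ranged over 0 to 1 in Apc-min and 0 to 1 in control organoids. Set means as units gave 0 called members for Bmal1 loss with Apc-min and 0 for the interaction. In the Apc comparison with Bmal1 WT they left Alox5ap uncalled (-0.58, adjusted p = 0.312). A filter at a mean of 5 TPM left Avil and Ptgs1 to test, and 2 were called in each Apc comparison and in the interaction. Without the Apc-min lower-numbered libraries, as without the higher-numbered ones an alternative chosen after seeing the data, 1 member was called for Bmal1 loss with Apc-min and 2 for the interaction. Of all genes 45.8% and 33.2% were called there, and the unmatched library labelled Apc-min Bmal1-null stayed in these fits. Without the Apc-min higher-numbered libraries Alox5ap reversed to 0.055 in Apc-min against control organoids. That fit kept the unmatched library labelled Apc-min. For trends, no filter gave 2 called members in Apc-min Bmal1-null and 0 in Apc-min organoids, a library set term gave 2 in Apc-min, time as a factor gave 0 in both, and median-of-ratios scaling gave 1 in Bmal1-null organoids (Pou2f3, 0.0165 per h, adjusted p = 0.0425). The cause was not tested in these cases. Of the values of single members, 510 under the settings listed in the methods kept their side of the threshold, 10 lost the call and 2 gained it. Among those added later, 29 kept their side, 3 lost the call and 1 reversed. Direction was compared only for levels, interactions and slopes, and only where a value was called. Uncalled values near 0 could change sign, as the interaction of Trpm5 did (-0.0028, and up to 0.0622 in an alternative). No paired analysis was possible because the labels give each library its own number and no replicate number shared by the genotypes. At these depths, members under 1 TPM were at or near 0 in many libraries, which limits Il25 and Gfi1b throughout and Sh2d6, Dclk1 and Trpm5 in the Apc-min genotypes. With 2 lines per genotype and no line named per library, spread between lines could not be measured.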

Other observations

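With WT Apc the genes that tracked the tuft members from library to library were others than in the ranking over 4 genotypes, with 1 shared gene (Ptprs). This ranking, added once the data had been seen, is a description. It took the mean of 2 correlations, each over 22 libraries, with the average of Dclk1, Trpm5, Avil, Pou2f3, Alox5ap and Sh2d6, over 12559 genes. The highest were Zfpm1 (0.902), Gm32742 (0.889), Papln (0.884), Abcb9 (0.881), Prr5 (0.879), Dusp4 (0.878), Sema7a (0.871), Ptprs (0.868), Agpat3 (0.867) and Myrf (0.866). Library and depth are shared by all points.

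Several genes known from tuft cells were close to 0 in the Apc-min genotypes and under the filter in all 4. Ffar3, a receptor for short-chain fatty acids, averaged 0.012 TPM in Apc-min Bmal1-null, 0.037 TPM in Apc-min, 0.56 TPM in Bmal1-null and 0.612 TPM in control organoids. Gnat3, the taste G protein gustducin, averaged 0.038, 0.053, 0.503 and 0.531 TPM in that order. Cd300lf, a surface receptor, averaged 0.002, 0.001, 0.27 and 0.304 TPM, and Siglecf averaged 0.078, 0.029, 0.384 and 0.376 TPM. These genes were chosen after their values were seen and were not tested, so their common direction is no support.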
